A study of Mus musculus with 6 samples.

Results

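The genes described are 10 of the mammalian circadian clock and its output: *Clock*, *Per1*, *Per2*, *Per3*, *Cry1*, *Cry2*, *Dbp*, *Tef*, *Hlf* and *Nfil3*. They were chosen by gene name as 10 of the 57180 genes listed, and all 10 passed the filter on low counts, which left 14151 genes for testing. Primary hepatocytes, the metabolic parenchymal cells of the liver, were isolated by collagenase perfusion from male mice of C57BL/6 background, 8 to 10 weeks old. LOXP mice carried floxed STING, and STINGLKO mice carried floxed STING together with Albumin-Cre, a recombinase expressed in hepatocytes. Cells of both groups were seeded in medium with 0.1 µM dexamethasone, a synthetic glucocorticoid, and serum. They were treated with 0.1 mM palmitic acid (PA), a saturated fatty acid, for 24 h, and there was no group without PA. The study's methods do not say whether the seeding medium was kept during treatment. RNA was sequenced in 6 libraries, 3 per group, to ask what hepatic STING, an adaptor of cytosolic DNA sensing, contributes under lipid load.

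The clock is a feedback loop of transcription. CLOCK and its partner BMAL1 bind E-box sequences and switch on the *Per* and *Cry* genes, whose proteins return to the nucleus and block CLOCK and BMAL1. The same activators drive the PAR bZIP factors DBP, TEF and HLF, which bind D-box sequences and control genes of detoxification in liver, while NFIL3 (E4BP4) binds the same D-boxes as a repressor. Serum and glucocorticoids are known to reset this loop in cultured cells. Mice were housed in a light-dark cycle, and the hour of isolation or harvest is not given in the sources used here. Every value below is therefore 1 sampled time per library.

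Libraries held 14726983 to 18536985 counted reads, and mitochondrial genes took 3.86% to 4.65% of them. *Sting1*, the targeted gene, had 19, 16 and 23 counts in the LOXP libraries and 24, 23 and 15 in the libraries labelled STINGLKO. These few counts overlapped (log2 fold change -0.08, adjusted p = 0.883, edgeR quasi-likelihood test), so the genotype label is not reflected in them, and the table gives 1 count for the whole gene, without separating the deleted exons. By RT-PCR, a separate assay, the study reported STING mRNA in purified hepatocytes and its loss in those of the knockout mice. All directions below are those of the libraries labelled STINGLKO, called STINGLKO for short. Whether replicates came from separate mice is not stated, so p-values measure the spread between these libraries, which may be technical.

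Stretches of promoter that hold the clock's binding motifs show which members carry them close to their start. Windows of 300 bases around gene starts, 250 before and 50 after, were taken from RefSeq (build GRCm38.p6) and searched on both strands. Of the 10 members, 9 matched windows, 13 in number, and *Per2* had no entry. The E-box, CACGTG, is the site of CLOCK and BMAL1, and a variant of it is CACGTT, or AACGTG on the other strand. The D-box, searched as TTATGTAA, TTACATAA and TTACGTAA, is the site of the PAR bZIP factors and NFIL3. The cAMP response element, TGACGTCA, is the site of CREB. In the stretches printed 5′ to 3′ here, the capitals mark the motif. They lie at chr11:69098768-69098803 (+) for *Per1*, chr4:151044801-151044885 (−) for *Per3*, chr10:85185094-85185148 (−) for *Cry1*, chr2:92434215-92434250 (−) for *Cry2*, chr15:81811261-81811296 (+) for the second start of *Tef* and chr11:90390918-90390941 (−) for *Hlf*, all in GRCm38 and upstream of the start.
Per1 E-box: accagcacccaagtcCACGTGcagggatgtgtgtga
Cry1 E-box variant and E-box: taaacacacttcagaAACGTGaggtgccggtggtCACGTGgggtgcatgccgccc
Cry2 E-box variant: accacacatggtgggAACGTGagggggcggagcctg
Tef E-box: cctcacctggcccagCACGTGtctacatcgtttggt
Per3 D-boxes: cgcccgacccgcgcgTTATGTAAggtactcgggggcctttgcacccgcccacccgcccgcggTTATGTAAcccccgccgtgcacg
Hlf cAMP response element: gcgcggtgcgggcccTGACGTCAc

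*Per1*, *Cry1* and *Tef*, 3 of the 9 members, had an E-box in a window. Counted by window, this was 4 of the 13, against 7.15% of all 32851 windows. The E-box of *Per1* began 166 bases before the start and that of *Cry1* 60 bases before it. The variant stood in *Cry1* and *Cry2* (4.68% of all windows), and the D-box in *Per3* alone, at 2 places (1.06%). *Hlf* had the cAMP response element (1.79%), and *Nfil3* had a core of the ROR element, searched as TAGGTCA and TGGGTCA and their complements (6.45%). *Clock* and *Dbp* had none of these motifs in their windows. A match is a run of letters in a short window and no evidence of binding.

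The 10 genes spanned a wide range of levels. On the FPKM scale, which divides counts by gene length and by the library's reads, *Nfil3* stood far above the rest at 29.0 ± 1.64 in LOXP and 30.1 ± 2.37 in STINGLKO (mean ± SD, n = 3). *Cry2*, *Per1*, *Cry1*, *Tef*, *Clock* and *Per2* followed, with LOXP means from 7.41 down to 3.001. *Hlf*, *Per3* and *Dbp* lay lowest, at 0.487, 0.463 and 0.402. In LOXP the neighbours that did not separate were *Cry1* and *Tef*, *Clock* and *Per2*, *Hlf* and *Per3*, and *Per3* and *Dbp*. In STINGLKO the neighbours *Per1* and *Cry2*, and *Tef* and *Clock*, did not separate, whereas *Per3*, *Hlf* and *Dbp* did. Their means there were 0.499, 0.337 and 0.211 FPKM.

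**Figure D1:**
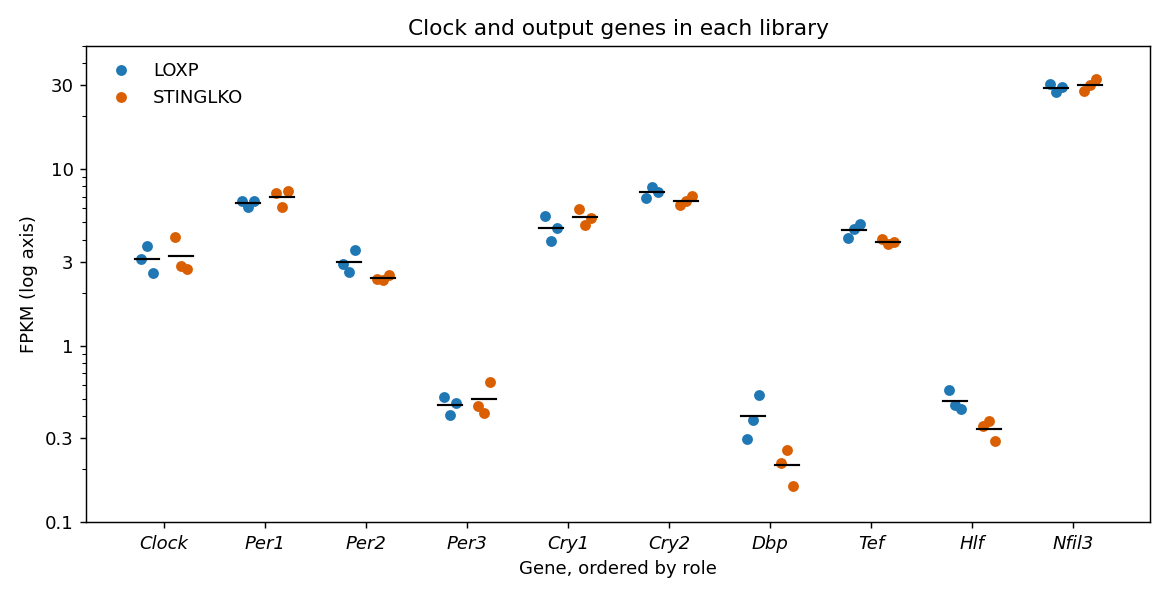
FPKM (log axis) of the 10 clock and output genes in each of the 6 libraries, with LOXP in blue, STINGLKO in orange and a line at each group mean. *Nfil3* lies near 30 in every library, 6 genes lie between about 2 and 8, and *Per3*, *Dbp* and *Hlf* lie under 1.

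The order between genes depends on the length used. The lengths implied by the deposited FPKM exceeded the merged exon length (GENCODE M21) by a median ratio of 1.33 over 13929 tested genes, and by 1.98 for *Dbp*, 1.73 for *Hlf*, 1.69 for *Tef*, 1.62 for *Clock* and 1.47 for *Per1*. With merged exon lengths, *Per1* came before *Cry2* in LOXP (9.46 against 8.09) and *Dbp* before *Per3* (0.794 against 0.612), while *Nfil3* stayed first and the 3 low genes stayed last. Neighbours among *Per3*, *Hlf* and *Dbp* then overlapped in STINGLKO as well. Comparisons of 1 gene between groups do not involve the length.

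None of the 10 members was called between STINGLKO and LOXP at an adjusted p under 0.05, whereas 23.1% of all 14151 genes tested were (edgeR quasi-likelihood test, Benjamini-Hochberg adjustment). DESeq2 and limma also called 0 members, whereas some other settings described below called 1 to 3. At an unadjusted p under 0.05 there were 5, *Per2*, *Cry2*, *Dbp*, *Tef* and *Hlf*, all lower in STINGLKO, against 35.9% of all genes in either direction. The libraries of the groups did not overlap for 4 of them, *Per2*, *Dbp*, *Tef* and *Hlf*, against 40.7% of all genes, so the members' share is that of the background. No member met all 3 of the study's criteria (a log2 fold change beyond 1 in size, the adjusted threshold, and over 1 FPKM on average in either group), which 2.05% of all genes met. The median log2 fold change of the members was -0.09, with 5 lower and 5 higher, and that of all genes tested was -0.00, with 50.3% lower. The median size of the change was 0.180 for the members and 0.207 for all genes. In RNA from many cells, fewer cells of a type and less RNA per cell cannot be told apart.

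*Clock*, which encodes the DNA-binding activator, lies on chr5:76357715-76452639 (GRCm39, the build named in the submitters' processing notes, as for the gene positions that follow). Its level in CPM (counts scaled to the library's reads and its TMM factor, the scale of all library values of a single gene below) was 69.1, 84.3 and 57.7 in LOXP and 91.1, 63.0 and 59.4 in STINGLKO. The groups overlapped, with the highest value of all 6 libraries in STINGLKO replicate 1 and the lowest in LOXP replicate 3. The log2 fold change, taken as STINGLKO against LOXP throughout, was 0.02 ± 0.183 (SE, adjusted p = 0.963, edgeR quasi-likelihood test), with a 95% confidence interval from -0.40 to 0.43. The direction turned to -0.20 without STINGLKO replicate 1 and to -0.11 without LOXP replicate 3. *Clock* varied more between replicates, with a coefficient of variation of 18.9% in LOXP and 24.4% in STINGLKO, than its 3177 and 3617 counts give by counting error, 3.07% and 2.88%.

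The *Period* genes encode the inhibitors that build up over the cycle, and *Per1* is also a direct target of the glucocorticoid receptor. *Per1* (chr11:68986043-69000786) measured 55.1, 51.8 and 55.1 CPM in LOXP and 60.3, 50.7 and 60.6 in STINGLKO. The lowest and the highest of these values were both in STINGLKO. Its log2 fold change was 0.08 ± 0.0858 (adjusted p = 0.541, edgeR quasi-likelihood test), and the interval from -0.11 to 0.28 holds no change of 1.5-fold. *Per2* (chr1:91343704-91387046) measured 17.2, 15.9 and 20.8 CPM in LOXP and 13.9, 14.0 and 14.6 in STINGLKO. Every STINGLKO library lay under every LOXP library, by a gap smaller than the spread within LOXP. Its log2 fold change was -0.34 ± 0.117, with an interval from -0.61 to -0.07 and an adjusted p of 0.0701 in the edgeR quasi-likelihood test. The exact two-sided permutation test gave 0.1, the smallest p that 3 libraries against 3 allow. *Per2* passed the adjusted threshold without LOXP replicate 2 (adjusted p = 0.0452, edgeR quasi-likelihood test).

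*Per3* (chr4:151088109-151129122), whose protein is the least needed for rhythm, measured 6.50, 5.31 and 6.06 CPM in LOXP and 5.74, 5.29 and 7.76 in STINGLKO. Its groups overlapped, with a log2 fold change of 0.07 ± 0.182 (adjusted p = 0.826, edgeR quasi-likelihood test) that turned to -0.11 without STINGLKO replicate 3, its highest library, and to -0.00 without LOXP replicate 2. Summed over the 3 genes, *Period* FPKM was 9.91 ± 0.748 in LOXP and 9.93 ± 0.899 in STINGLKO. Within that sum the share of *Per1* was 65.1% ± 2.30 in LOXP and 70.4% ± 1.76 in STINGLKO, and the libraries did not overlap. With merged exon lengths the shares were 72.3% and 76.7%, again without overlap. These shares are descriptions without a test.

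The *Cryptochrome* genes encode the other arm of the repressor, CRY1 being the stronger repressor of CLOCK and BMAL1. *Cry1* (chr10:84967564-85020928) measured 22.4, 16.6 and 19.3 CPM in LOXP and 24.2, 19.97 and 21.4 in STINGLKO. *Cry2* (chr2:92233991-92264388) measured 47.5, 56.7 and 51.5 CPM in LOXP and 42.9, 45.5 and 47.6 in STINGLKO. The groups overlapped for both genes, for *Cry2* only by STINGLKO replicate 3 lying just above LOXP replicate 1. *Cry1* had a log2 fold change of 0.17 ± 0.127 (interval from -0.12 to 0.46, adjusted p = 0.397, edgeR quasi-likelihood test). For *Cry2* it was -0.19 ± 0.0846 (interval from -0.39 to -0.00, adjusted p = 0.139, same edgeR test). The estimates differed in sign, which was not tested as a difference, and summed *Cry* FPKM was 12.1 ± 0.194 in LOXP and 12.01 ± 0.503 in STINGLKO. The ratio of *Cry2* to *Cry1* FPKM was 1.63 ± 0.386 in LOXP and 1.25 ± 0.166 in STINGLKO, with overlap.

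The 3 PAR bZIP genes were each lower in every STINGLKO library than in any LOXP library, and none passed the adjusted threshold. The groups did not overlap, in either direction, for 40.7% of all genes tested. *Dbp* (chr7:45354512-45359627), an output gene with a steep daily rhythm in liver, had 28, 33 and 48 counts in LOXP and 20, 28 and 16 in STINGLKO. On the CPM scale this gave 1.77, 2.31 and 3.16 against 1.27, 1.51 and 0.933, and LOXP replicate 3 stood highest. The log2 fold change of -0.95 ± 0.303 had an interval from -1.64 to -0.26 and an adjusted p of 0.0536 (edgeR quasi-likelihood test), and corresponds to 0.517 of the LOXP level. It was the largest change among the members, and 94.8% of all genes tested changed by as much or less. The expected counting error alone is 16.6% per library in LOXP and 21.7% in STINGLKO at these counts. Leaving out LOXP replicate 3 gave -0.71 (adjusted p = 0.180, same edgeR test), and leaving out LOXP replicate 1 gave -1.14 (adjusted p = 0.0386).

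*Tef* (chr15:81686622-81711064), the most abundant of the 3 at the RNA level, measured 54.8, 62.6 and 65.9 CPM in LOXP and 53.0, 50.2 and 50.3 in STINGLKO. The gap between the groups was narrow, from 53.0 to 54.8, and the STINGLKO libraries lay close together. The log2 fold change was -0.26 ± 0.0826 (interval from -0.44 to -0.07, adjusted p = 0.0565, edgeR quasi-likelihood test), which passed the threshold without LOXP replicate 1 (adjusted p = 0.0163). *Hlf* (chr11:90227362-90281721) had 103, 79 and 78 counts in LOXP and 63, 80 and 56 in STINGLKO, or 6.50, 5.52 and 5.14 CPM against 4.02, 4.32 and 3.27. Its log2 fold change was -0.56 ± 0.176, an interval from -0.97 to -0.16, and its adjusted p of 0.0501 in the edgeR quasi-likelihood test lay just above the threshold.

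Summed FPKM of *Dbp*, *Tef* and *Hlf* was 5.41 ± 0.455 in LOXP and 4.43 ± 0.144 in STINGLKO. The sums could not overlap, because none of the 3 genes overlapped, and add nothing to the values of the single genes. *Tef* made up 83.5% ± 0.858 of the sum in LOXP and 87.6% ± 1.92 in STINGLKO, without overlap, and with merged exon lengths 82.4% and 86.8%. In STINGLKO replicate 3, which had the lowest *Dbp* and *Hlf*, its share was 89.6%. These shares are descriptions without a test.

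*Nfil3* (chr13:53121245-53135109), the repressor at the D-box, measured 62.0, 56.9 and 59.7 CPM in LOXP and 55.6, 61.1 and 64.4 in STINGLKO. The lowest and the highest library were again both in STINGLKO. Its log2 fold change was 0.02 ± 0.0768 (adjusted p = 0.883, edgeR quasi-likelihood test), with the narrowest interval of the 10 members, from -0.16 to 0.20. The ratio of *Nfil3* to summed PAR bZIP FPKM was 5.40 ± 0.664 in LOXP and 6.82 ± 0.750 in STINGLKO, and the libraries overlapped. LOXP replicate 1, at 6.16, lay above STINGLKO replicate 1, at 6.06.

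**Figure D2:**
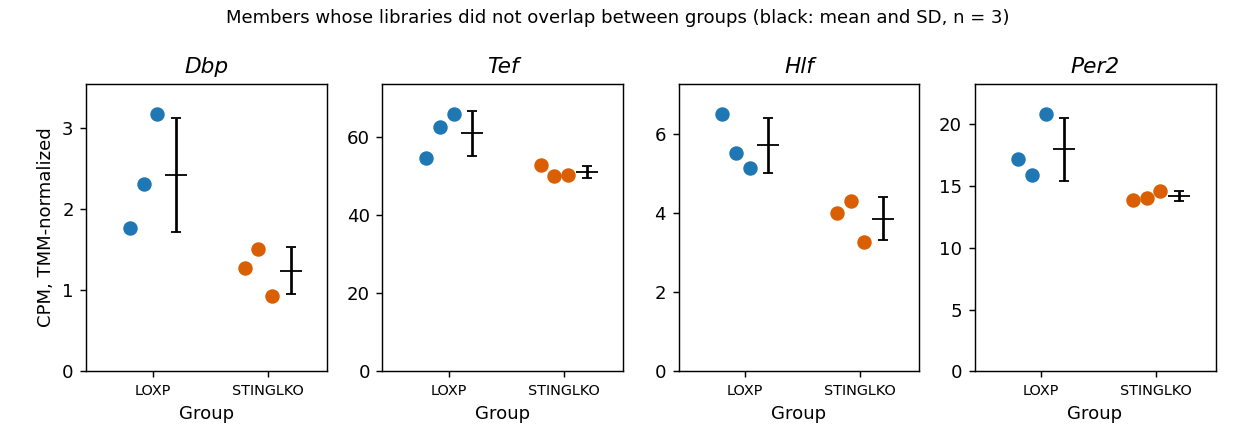
TMM-scaled CPM of *Dbp*, *Tef*, *Hlf* and *Per2* in each library by group, with the mean and SD in black (n = 3) and each axis starting at 0. All 3 STINGLKO libraries lie under all 3 LOXP libraries in each panel, with gaps that are small for *Tef* and *Per2*. These members were picked for not overlapping, which held for 40.7% of all genes tested in either direction.

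How close *Dbp*, *Tef*, *Hlf* and *Per2* lay to the threshold shows in the 16 alternative settings tried. *Hlf* was called in 4 of them, *Dbp* in 4, *Tef* in 2 and *Per2* in 1, all lower in STINGLKO. Adjusted p-values ran from 0.0335 to 0.145 for *Hlf*, from 0.0227 to 0.180 for *Dbp*, from 0.0163 to 0.166 for *Tef* and from 0.0452 to 0.196 for *Per2* across edgeR, DESeq2 and limma settings. *Cry2* was called in none (0.0656 to 0.350). The direction of these 5 genes was lower in every setting.

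**Figure D3:**
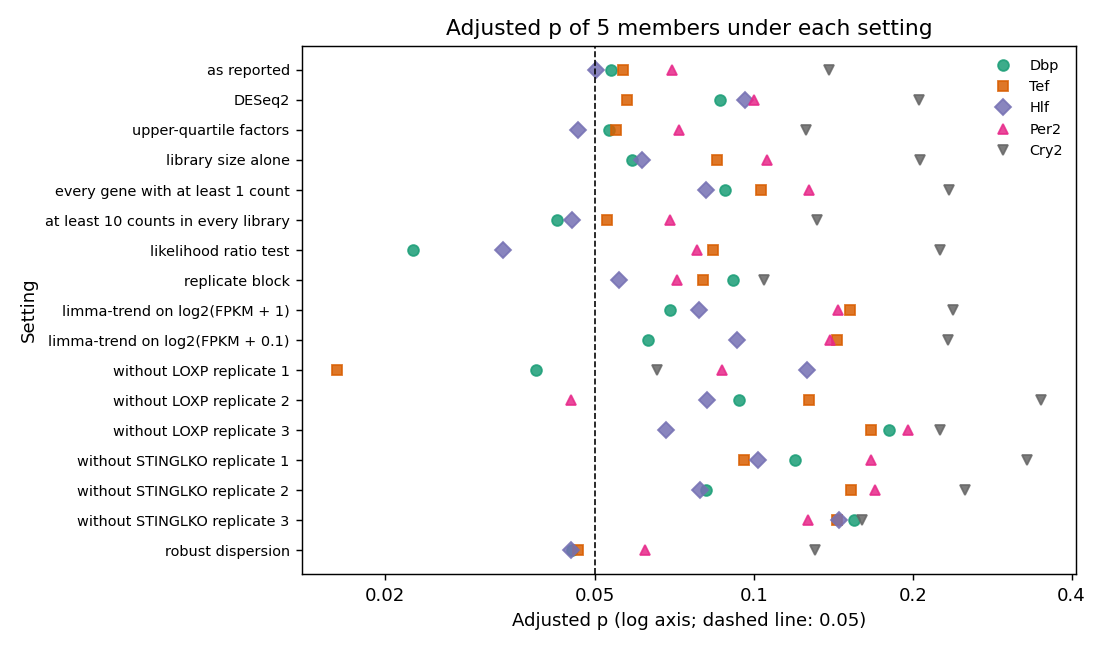
Adjusted p (log axis) of *Dbp*, *Tef*, *Hlf*, *Per2* and *Cry2* under the reported setting and 16 alternatives, with a dashed line at 0.05. *Hlf*, *Dbp* and *Tef* lie at 0.0501, 0.0536 and 0.0565 in the reported setting and cross the line in a minority of settings.

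Of the other genes of the clock loop, 11 of 12 were tested, 6 were called lower in STINGLKO and 2 higher, against 11.6% and 11.5% of all genes. The number called fell from 8 to 3 without STINGLKO replicate 2, to 4 without LOXP replicate 3 or STINGLKO replicate 3, and to 5 without STINGLKO replicate 1 or with every gene of at least 1 count. Their median log2 fold change was -0.35. *Bmal1*, the partner of CLOCK, fell from 16.6 ± 1.17 to 12.8 ± 0.805 CPM (mean ± SD, n = 3), or by 0.37 ± 0.103 in log2 terms (SE, adjusted p = 0.0327, edgeR quasi-likelihood test). *Npas2*, a paralogue of *Clock* whose protein also pairs with BMAL1, fell from 4.17 ± 0.110 to 2.47 ± 0.0410 CPM, or by 0.75 in log2 terms (adjusted p = 0.0131, same edgeR test). The call of *Npas2* was lost without STINGLKO replicate 2 (adjusted p = 0.0540, same edgeR test), and that of *Bmal1* without any one of LOXP replicates 1 and 3 or the STINGLKO libraries (up to 0.106).

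*Nr1d2* (REV-ERBβ), a repressor of *Bmal1*, fell by 0.25 in log2 terms (adjusted p = 0.0458, edgeR quasi-likelihood test), and its relative *Nr1d1* (REV-ERBα) had a log2 fold change of -0.23 (adjusted p = 0.131). The call of *Nr1d2* held without LOXP replicate 3 and was lost without any other single library (up to 0.135). *Ciart*, a further repressor of the loop, had -0.35 (adjusted p = 0.127, same edgeR test) and overlapped between groups. *Bhlhe40* (DEC1), a repressor at E-boxes, had -0.02, a sign that turned when counts were scaled by library size alone, while its relative *Bhlhe41* (DEC2) rose by 0.97 in log2 terms (adjusted p = 0.0358, same edgeR test). *Bhlhe41* was low, at 2.15 ± 0.600 CPM in LOXP and 4.20 ± 1.083 in STINGLKO, and lost its call without LOXP replicate 2 or 3 or STINGLKO replicate 2 or 3 (up to 0.134). Of the 16 alternative settings, *Npas2* was called in 15, *Bhlhe41* in 10, *Nr1d2* in 6 and *Bmal1* in 5, and DESeq2 gave *Bmal1* an adjusted p of 0.0601.

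Further calls of this list, named after their values were seen, were *Rora*, *Bmal2* and *Timeless*. *Rora* encodes a nuclear receptor that activates *Bmal1* and competes with the REV-ERB proteins. *Rora* measured 81.1, 74.4 and 73.9 CPM in LOXP and 43.1, 38.2 and 39.4 in STINGLKO, a clear separation (log2 fold change -0.93 ± 0.0762, adjusted p = 1.5e-04, edgeR quasi-likelihood test). *Bmal2* fell by 0.52 on the log2 scale, and *Timeless*, a replication fork protein named for a fly clock gene, rose by 0.61. *Rorb* was at 0 counts in all 6 libraries.

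**Figure D4:**
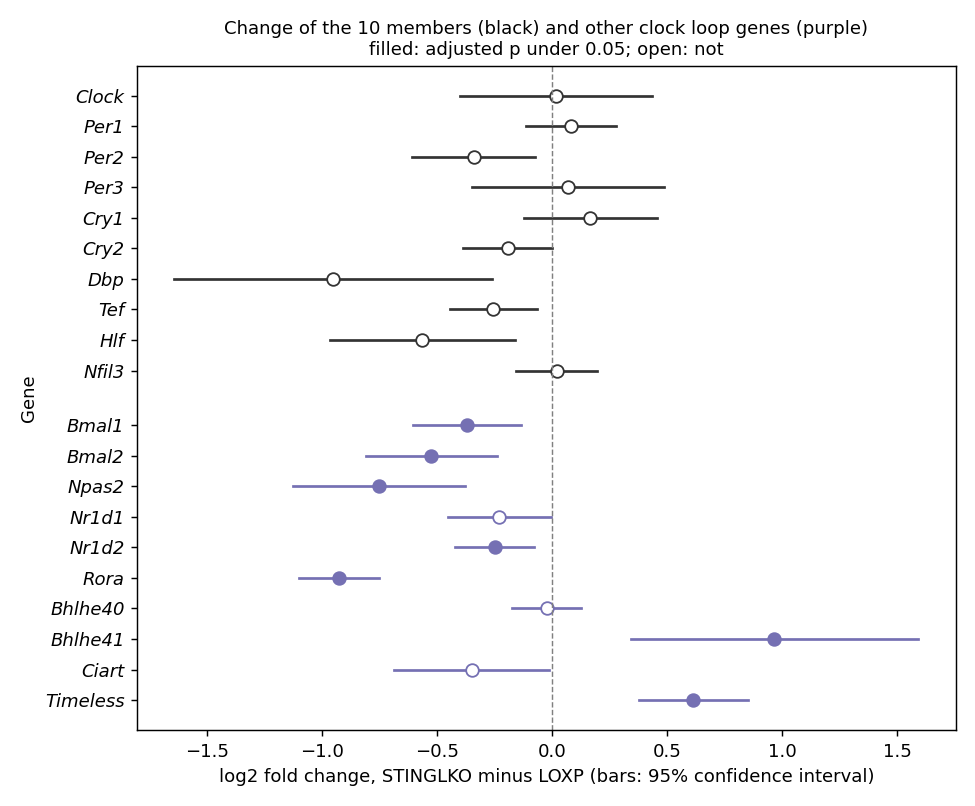
Log2 fold change of STINGLKO against LOXP with its 95% confidence interval for the 10 members (black) and 10 other clock loop genes (purple), filled where the adjusted p was under 0.05. No member is filled, 7 of these other loop genes are, and *Rora* has the smallest adjusted p.

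Enzymes that modify clock proteins split in direction. Of 17 kinases, ubiquitin ligases and related proteins, all tested, 3 were called lower and 4 higher, against 11.6% and 11.5% of all genes, with a median log2 fold change of -0.02. The number called fell from 7 to between 2 (without STINGLKO replicate 2) and 4 (without LOXP replicate 1) when any single library was left out, to 4 with the likelihood ratio test and to 3 with every gene of at least 1 count. *Csnk2b*, the regulatory subunit of casein kinase 2, fell by 0.51 in log2 terms (adjusted p = 8.8e-04, edgeR quasi-likelihood test). *Csnk1e*, a kinase that marks PER proteins for degradation, rose by 0.45 (adjusted p = 0.00895, same edgeR test).

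Of 8 genes known to depend on the PAR bZIP factors or to be bound by them, 6 were tested, and 3 were called lower, against 11.6% of all genes, and none higher. All 6 had negative log2 fold changes, with a median of -0.57. The tested genes not called, named after their values were seen, were *Por*, *Ppara* and *Nr1i3*. *Por*, the best expressed of the list, was nearly unchanged at -0.02 (adjusted p = 0.885, edgeR quasi-likelihood test). *Ppara* had -0.21, and *Nr1i3* had -0.63 at 16 to 29 counts per library. *Alas1*, the rate-limiting enzyme of haem synthesis in liver, measured 134, 130 and 134 CPM in LOXP and 88.9, 86.5 and 95.1 in STINGLKO, and fell by 0.56 in log2 terms (adjusted p = 5.2e-04, edgeR quasi-likelihood test). *Cyp2b10*, a xenobiotic-inducible cytochrome P450, fell by 0.59 (adjusted p = 0.00353), and *Cyp2a5*, whose reads may be shared with its close paralogue *Cyp2a4*, fell by 0.67 (adjusted p = 4.0e-04, same edgeR test). These enzymes are also hepatocyte products, and the hepatocyte markers described below moved the same way.

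Of 10 other genes with a daily rhythm in liver, all tested, 2 were called lower and none higher. That share is close to the 23.1% of all genes called in either direction. By sign of the estimate 4 were lower and 6 higher, and the median log2 fold change was 0.08. *Rgs16*, a regulator of G protein signalling, measured 8.14, 16.9 and 11.3 CPM in LOXP and 3.82, 3.45 and 3.21 in STINGLKO (log2 fold change -1.79, adjusted p = 0.00216, edgeR quasi-likelihood test). *Gys2*, the liver glycogen synthase, fell by 1.01 in log2 terms (adjusted p = 0.00262), and *Lpin1*, a phosphatidate phosphatase, had -0.37 (adjusted p = 0.0949, same edgeR test). Because the seeding medium held dexamethasone, genes that respond to glucocorticoids were read as well. Of 12, 5 were called lower and 2 higher, against 11.6% and 11.5% of all genes, with a median log2 fold change of -0.30. The number called fell from 7 to 4 without STINGLKO replicate 1 or 2. *Igfbp1*, a secreted binder of insulin-like growth factors, fell by 1.40 in log2 terms (adjusted p = 8.8e-05, edgeR quasi-likelihood test). *Pck1*, the gluconeogenic PEP carboxykinase, fell by 3.30 (adjusted p = 0.00162), and *Tat*, tyrosine aminotransferase, fell by 0.83 (adjusted p = 0.00320, same edgeR test). The 2 called higher were *Sgk1* (0.47, adjusted p = 0.0452) and *Dusp1* (0.37, adjusted p = 0.0137, same edgeR test). *Fkbp5*, *Tsc22d3*, *Zbtb16* and *Klf9* had -0.16, -0.30, -0.22 and 0.05, and none of them was called. These genes, from *Sgk1* on, were named after their values were seen.

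Markers of the labelled cell type were high in all libraries and moved between the groups. Summed FPKM of 20 hepatocyte markers ran from 14462 to 15092 in LOXP and from 11729 to 11960 in STINGLKO. Of the 20, 14 were called lower and 1 higher, against 11.6% and 11.5% of all genes. Albumin (*Alb*) and *Gc*, which encode plasma proteins, had log2 fold changes of -0.27 and -0.73, and *Apoa1*, the main apolipoprotein of HDL, had -0.09. *Alb* alone gave a mean of 7670 FPKM in LOXP and 6541 in STINGLKO to the sum. Of 8 cholangiocyte markers 5 were tested, with 3 called lower and 1 higher, against 11.6% and 11.5% of all genes. The summed FPKM of the 8 was 124 to 145 in LOXP and 65.7 to 77.01 in STINGLKO. *Cldn4* and *Sox9* had log2 fold changes of -1.03 and -0.87, and *Spp1* had -2.04, while *Krt19*, a keratin named after its values were seen, was the marker called higher, with a log2 fold change of 0.82 and mean FPKM of 0.888 in LOXP and 1.61 in STINGLKO (adjusted p = 0.0479, edgeR quasi-likelihood test). This call was lost without any single library other than LOXP replicate 1 (adjusted p up to 0.152, same edgeR test). The defining markers *Krt7*, *Epcam* and *Cftr* were near 0 in both groups.

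Summed FPKM of 15 macrophage and Kupffer cell markers was 107 to 115 in LOXP and 85.7 to 94.2 in STINGLKO. Within it, *Cd68* alone had a mean of 37.5 in LOXP and 21.1 in STINGLKO. Of 14 tested, 2 were called lower and none higher, against 11.6% and 11.5% of all genes. *Cd68*, *Cd14* and *Lyz2* had log2 fold changes of -0.87, -0.03 and 0.18, the sign of *Cd14* turning under scaling by library size alone. Of 12 sinusoidal endothelial markers, 1 of 11 tested was called, lower, against 11.6% of all genes. Their summed FPKM was 30.8 to 32.9 in LOXP and 28.6 to 30.8 in STINGLKO. *Cdh5*, *Lyve1* and *Eng*, the 3 with the highest FPKM, had 0.01, -0.20 and -0.06, the sign of *Cdh5* turning with upper-quartile factors. Of the 11 estimates, 9 were negative and 2 positive, and the middle one was -0.28. The marker called was *Stab2*, named after its values were seen, at -0.49 (adjusted p = 0.00445, edgeR quasi-likelihood test). None of 10 tested stellate cell markers of 12 was called (edgeR quasi-likelihood test), against 23.1% of all genes. Summed FPKM of the 12 was 19.0 to 21.1 in LOXP and 19.6 to 21.5 in STINGLKO. *Ecm1*, *Sparc* and *Dcn* had -0.13, -0.04 and 0.16. *Col3a1*, named after its values were seen, was the 1 marker at an unadjusted p under 0.05 (same edgeR test), with a log2 fold change of 0.42. Lymphocyte and neutrophil markers had 47 counts in all, in 3 of 15 genes, *S100a8*, *S100a9* and *Csf3r*, and the other 12 were at 0. The part of these marker shifts in the lower PAR bZIP and *Per2* values was not tested.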

How the data were processed

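RNA-seq of 6 libraries was read from 1 deposited table with 2 values per gene and library. The deposited counts are whole reads per gene without normalization, and the FPKM values, computed by the authors, are these counts relative to a length fixed for each gene and to the total of the library. The submitters' processing notes name fastp, HISAT2, StringTie, edgeR and the GRCm39 build, without versions, and the counting tool, annotation and strand setting are not given in the sources used here.

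Libraries were grouped by their genotype labels, and none was left out. In R 4.3.3, counts were filtered (filterByExpr by group, minimum 10), given TMM factors and tested between groups by edgeR 4.0.16 (quasi-likelihood, two-sided), with Benjamini-Hochberg adjustment over the 14151 genes tested and a threshold of 0.05. Exact two-sided permutation tests compared the group means of log2(CPM + 1) of single genes. The test was checked on simulated counts. Depth was 14726983 to 18536985 counted reads, and intervals of counting error cover counting only. Alternatives were DESeq2 1.42.0, upper-quartile factors, library size alone, a looser filter (1 count in all) and a stricter one (10 counts in every library), the likelihood ratio test, the replicate number as a block, limma 3.58.1 (limma-trend) on log2 FPKM with pseudocounts of 1 or 0.1, fits without 1 library and, added after the data were seen, robust dispersion. DESeq2 gave no adjusted p for 8 genes.

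The members and all gene lists were chosen with earlier results of these data known. Genes named are all members, *Sting1*, *Bmal1*, *Npas2*, *Nr1d1*, *Nr1d2*, *Ciart*, *Bhlhe40* and *Bhlhe41*, the 3 genes with the smallest adjusted p of each other list that is not a marker list, and the 3 markers with the highest FPKM of each cell type, and some genes so chosen are not reported here. Promoter windows came from RefSeq (GRCm38.p6), and merged exon lengths from GENCODE M21, matched by identifier for 98.4% of the genes tested. Python 3.11.15 with matplotlib 3.10.9 drew the figures.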

Additional observations from a re-analysis of the deposited data

How the results depend on the processing

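Of the 10 clock and output genes, 0 were called as reported, 1 with upper-quartile factors (*Hlf*), 2 with at least 10 counts in every library and 2 with the likelihood ratio test (*Dbp* and *Hlf* both times), and 3 with robust dispersion, which was added after the data were seen (*Dbp*, *Tef* and *Hlf*). With single libraries left out the count ran from 0 to 2: *Dbp* and *Tef* without LOXP replicate 1, *Per2* without LOXP replicate 2 and none without any other. DESeq2, library size alone, at least 1 count, the replicate block and both limma settings called 0 members, with 2 to 5 at an unadjusted p under 0.05. All genes called ran from 1974 to 3025 with single libraries left out, lowest without STINGLKO replicate 2, against 3274.

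The replicate numbers of the groups were used as a block in 1 setting, which called 3235 genes in all and 0 members, where adjusted p was 0.0555 for *Hlf* and 0.0913 for *Dbp* in edgeR's quasi-likelihood test. Same-numbered libraries deviated together only weakly across genes, with correlations of 0.12, 0.0834 and 0.0134. LOXP replicates 1 and 2 correlated best with the STINGLKO library of the same number, and LOXP replicate 3 with STINGLKO replicate 2 (0.0459). These weak correlations do not settle whether the numbers mark pairs. In the reported fit the libraries were taken to share only a number. *Bmal1* was not called under this block (adjusted p = 0.0602, edgeR quasi-likelihood test) and neither was *Bhlhe41* (0.0603).

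Of the other clock loop genes, 5 were called with at least 1 count and 3 to 6 with single libraries left out. Of the clock protein modifiers, 3 were called with at least 1 count, 4 with the likelihood ratio test and 2 to 4 with single libraries left out, and of the glucocorticoid-responsive genes 4 to 8. The cause of these moves was not tested, and a fit without a library also holds fewer samples.

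Signs turned for genes with small changes. *Bhlhe40* was at 0.0120 with library size alone and at 0.0130 and 0.0133 with the limma settings (pseudocounts 1 and 0.1). *Cd14* was at 0.00582 with library size alone and 0.00934 and 0.00965 in the limma settings, *Cdh5* at -0.00263 with upper-quartile factors, and *Sparc* at 0.00373 and 0.00640 in these limma settings. With single libraries left out, log2 fold changes ran from -0.20 to 0.17 for *Clock*, from -0.11 to 0.18 for *Per3*, from -0.0264 to 0.0778 for *Nfil3* and from -0.26 to 0.11 for *Sting1*. They ran from -0.0644 to 0.0368 for *Bhlhe40*, from -0.0923 to 0.0610 for *Cd14*, from -0.0715 to 0.0788 for *Cdh5*, from -0.15 to 0.10 for *Eng* and from -0.17 to 0.0512 for *Sparc*. Low depth limits the precision of *Dbp* (16 to 48 counts per library), *Hlf* (56 to 103) and *Per3* (76 to 133) among the members, and of *Npas2* (39 to 68) and *Bhlhe41* (24 to 99) among the other loop genes.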
